A study of Mus musculus with 6 samples.

Results

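The genes described here encode the receptors for dopamine, serotonin, noradrenaline and adrenaline, histamine and acetylcholine. They were chosen by symbol alone, as those that start with Drd, Htr, Adra, Adrb, Hrh, Chrm or Chrn and go on with a subunit or subtype number or letter, which gave 54 symbols among the 47086 loci of the table. Chrna1os, an antisense RNA that shares its name with a muscle nicotinic subunit gene, fell under the rule and was kept apart, which left 53 receptor genes. Total RNA of primary hippocampal cultures was sequenced after 14 days in vitro, from wild type (WT) mice (3 libraries) and *Fmr1* knockout (KO) mice (3 libraries), both labelled C57BL/6, with no treatment named for either. *Fmr1* encodes FMRP, the RNA-binding protein whose loss causes fragile X syndrome, and the mice carry the knockout in the germ line, so that neurons and glia alike carry it. The cultures came from newborn pups. The study's mice in general were male KO animals and WT littermates of heterozygous mothers, while neither the sex of the cultured pups nor the litter behind each library is given in the sources used here. The values are FPKM, fragments scaled by the length of the transcript and by the mapped fragments of the library, and so can be compared between genes of unequal length.

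Most of these receptors are G protein coupled receptors, which pass a signal to the cell through Gs (raising cyclic AMP), Gi/o (lowering it and opening potassium channels) or Gq (releasing calcium from stores). The nicotinic receptors and the 5-HT3 serotonin receptor differ from them in being ion channels made of subunits, so that a functional receptor needs the products of matching subunit genes. In the hippocampus the transmitters reach these receptors on axons from the septum, raphe, locus coeruleus, hypothalamus and midbrain, whose cell bodies lie outside the dissected tissue. Trifluoperazine, the drug that the study went on to test in mice, is an antipsychotic that blocks dopamine receptors, and antipsychotics of its class also bind adrenergic, serotonin, histamine and muscarinic receptors to differing extents.

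The 53 receptor genes ranged from 0 FPKM in every library to 20.3 FPKM, and their start sites differed in the density of CG dinucleotides, which cluster in CpG islands at many vertebrate promoters. A start site from RefSeq (GRCm38.p6) was available for 40 of the 53 genes, and the 250 bases before it were read. The genes without one included Chrm1, the receptor gene with the highest level, and Adra1d, Adra1a, Htr3a and Htr4. Where a gene had several starts, the window with the most CG was taken. The 19 of these genes that passed an FPKM minimum of 1 (a mean of at least 1 in either genotype) had 4 to 42 CG in the window, with a median of 22, and 15 of them (78.9%) had at least 10. The 16 that stayed under the minimum but above 0 had a median of 11, with 9 (56.2%) at 10 or more. The 5 matched genes that were listed at 0 in all 6 libraries had 1 to 5 CG, with a median of 1, and none had 10. Over all 27025 genes with a start, the median was 6 and 40.2% had at least 10. The contrast depended on the start. With the window of fewest CG for each gene instead, an alternative chosen after seeing the data, 10 of the 19 genes past the minimum (52.6%, median 10) and 7 of the 16 under it (43.8%, median 8.5) had at least 10, while the 5 listed at 0 were the same. Over all genes it was 35.4%. Printed below are a window with the most CG (Hrh3), a pair with the fewest (Drd3 and Chrne) and that of an exception (Htr2c). Also printed are that of the gene past the minimum with the largest difference between genotypes (Htr6) and that of the nicotinic subunit gene described later (Chrnb2). All these windows are written 5′ to 3′ with every CG in capitals. They lie on GRCm38.p6 at chr2:180104408-180104657, minus strand (Hrh3, 42 CG), chr4:139075571-139075820, minus strand (Htr6, 23 CG, against 9 at its other start), chr3:89764633-89764882, minus strand (Chrnb2, 10 CG), chrX:146962263-146962512, plus strand (Htr2c, 5 CG), chr16:43761971-43762220, plus strand (Drd3, 1 CG) and chr11:70619195-70619444, minus strand (Chrne, 1 CG).
Hrh3: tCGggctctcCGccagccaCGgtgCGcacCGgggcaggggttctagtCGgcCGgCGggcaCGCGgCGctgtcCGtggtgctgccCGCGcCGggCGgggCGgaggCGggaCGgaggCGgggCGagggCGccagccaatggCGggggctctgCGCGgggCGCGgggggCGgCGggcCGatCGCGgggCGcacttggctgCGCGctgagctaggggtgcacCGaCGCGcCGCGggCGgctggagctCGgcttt
Htr6: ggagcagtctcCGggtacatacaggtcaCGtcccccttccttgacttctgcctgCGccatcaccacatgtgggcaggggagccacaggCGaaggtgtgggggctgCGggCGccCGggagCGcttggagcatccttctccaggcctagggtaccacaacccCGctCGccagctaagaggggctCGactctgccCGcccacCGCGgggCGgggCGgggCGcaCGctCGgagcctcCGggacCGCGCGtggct
Chrnb2: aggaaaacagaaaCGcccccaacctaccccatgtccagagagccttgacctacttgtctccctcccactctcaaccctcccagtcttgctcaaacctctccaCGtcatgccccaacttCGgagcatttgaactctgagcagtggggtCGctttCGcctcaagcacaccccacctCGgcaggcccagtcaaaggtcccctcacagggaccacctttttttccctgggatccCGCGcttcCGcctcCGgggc
Htr2c: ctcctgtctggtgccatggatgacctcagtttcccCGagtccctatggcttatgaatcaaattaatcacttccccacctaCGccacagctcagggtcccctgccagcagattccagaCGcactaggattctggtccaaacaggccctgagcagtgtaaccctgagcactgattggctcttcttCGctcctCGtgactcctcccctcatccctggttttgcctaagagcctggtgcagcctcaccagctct
Drd3: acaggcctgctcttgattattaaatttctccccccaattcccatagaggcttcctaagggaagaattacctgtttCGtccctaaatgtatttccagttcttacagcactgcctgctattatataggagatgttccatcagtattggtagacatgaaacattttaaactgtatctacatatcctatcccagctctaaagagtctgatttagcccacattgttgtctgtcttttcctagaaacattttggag
Chrne: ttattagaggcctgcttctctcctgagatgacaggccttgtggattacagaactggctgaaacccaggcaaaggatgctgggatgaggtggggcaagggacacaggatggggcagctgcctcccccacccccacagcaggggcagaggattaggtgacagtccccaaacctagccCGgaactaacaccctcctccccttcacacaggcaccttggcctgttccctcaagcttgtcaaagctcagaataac

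The Hrh3 window (7.04 FPKM over the 6 libraries) was dense in CG along its whole length, whereas those of Drd3 and Chrne (both listed at 0) held a single CG each. The order was not strict. Htr2c, the receptor gene with the second highest level (11.0 FPKM), had only 5 CG. Of the genes past the minimum that had a start, Htr2a, Adra2c and Htr1a were the others with fewer than 10. In the other direction, Drd5 had 35 CG at a level of 0.200 FPKM. The RefSeq start used for Drd3 lay inside the locus of the deposited table, which began upstream of it. That start also lay inside the RefSeq gene, which begins at 43754015, so that the printed window is not the one before the outermost end of the gene. The windows of Hrh3, Chrne and Htr2c each overlap the edge of their RefSeq gene in part. The genes Hrh3 and Chrne, on the minus strand, reach to 180104484 and 70619213, and Htr2c begins at 146962464. The GC box GGGCGG, searched on both strands and partly the same letters as the CG count, was found in 12 of the 19 windows of genes past the minimum (63.2%), 9 of 16 under it (56.2%) and 0 of 5 listed at 0, against 34.4% of all windows. With the windows of fewest CG it was 9 of 19 (47.4%) and 9 of 16 (56.2%). TATAAA, also on both strands, was found in 2 of the 40 (5%), Adra2a and Chrnb1, against 12.6% of all windows. These matches describe the letters of the windows and were not tested against the levels.

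Of the 53 receptor genes, 24 passed the FPKM minimum, 23 lay under it but above 0 in at least 1 library, and 6 were listed at 0 throughout. The 24 genes past the minimum held between 95.5 and 96.5% of the summed FPKM of the 54 symbols, and that sum was between 144 and 153 in every library. The muscarinic receptor gene Chrm1 stood first at 20.3 FPKM, above 92.0% of all loci. Below it, 10 genes lay between 6.96 and 11.0 FPKM, in the order Htr2c, Adra2a, Chrm3, Chrna4, Chrnb2, Adra1d, Adra2c, Chrna7, Hrh3 and Chrm4. Of the 23 pairs of neighbours in the order of the 24 genes, 19 had overlapping ranges over the 6 libraries, so that the order within the middle of the list was not resolved. The 4 steps that did not overlap came after Chrm1, Chrm4, Adrb1 and Htr5a.

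**Figure D1:**
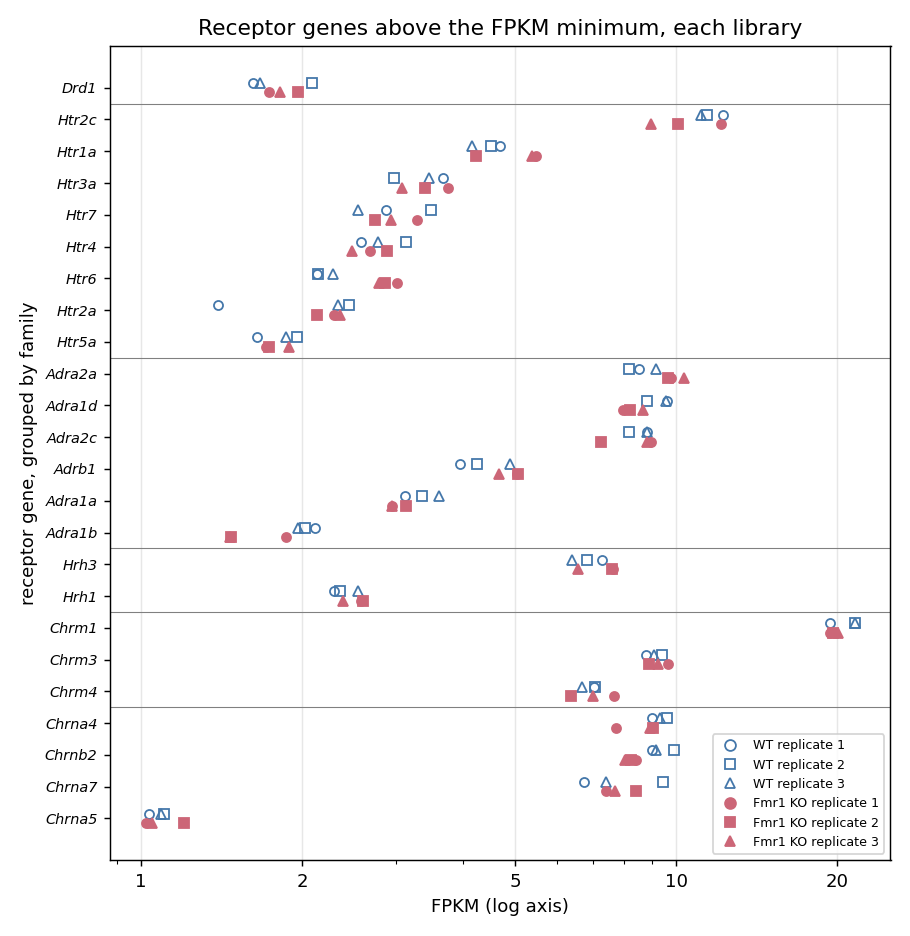
FPKM on a log axis for the 24 receptor genes past the minimum, grouped by family, with open blue symbols for the WT libraries and filled red symbols for the Fmr1 KO libraries. Chrm1 stands alone near 20 FPKM, and the symbols of the genotypes are intermixed for most genes, with Htr6, Adra2a, Adra1b, Adra1d and Chrnb2 as the exceptions.

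Among the 5 dopamine receptor genes, only Drd1 passed the minimum. Drd1, which encodes the Gs-coupled D1 receptor, had 1.62, 2.09 and 1.67 FPKM in WT and 1.73, 1.96 and 1.82 in *Fmr1* KO. The WT libraries spanned all 3 KO values. Drd2, which encodes the Gi/o-coupled D2 receptor that antipsychotics block, stayed under the minimum, with 0.593, 0.827 and 0.563 FPKM in WT and 0.385, 0.583 and 0.507 in *Fmr1* KO. Drd4 and Drd5 were lower still, at 0.0376 to 0.419 and 0.126 to 0.356 FPKM, and Drd3 was listed at 0. Antagonists of the D1 and D2 receptors were given to mice elsewhere in the work beside trifluoperazine, and were also applied to WT hippocampal neurons after 14 days in vitro. In those neurons the paper reports that neither antagonist inhibited Akt phosphorylation and that both changed phosphorylation of the kinase S6K1. In the cultures sequenced here, Drd1 averaged 1.81 FPKM and Drd2 0.576 FPKM.

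The serotonin family had 8 of its 14 genes past the minimum, the most of any family. Htr2c, encoding a Gq-coupled receptor whose transcript is edited in the brain, led with 12.3, 11.4 and 11.1 FPKM in WT and 12.1, 10.1 and 8.97 in *Fmr1* KO. KO replicate 1 lay among the WT libraries and the other KO libraries below them. Htr1a, the Gi/o-coupled receptor that inhibits pyramidal cells, had 4.69, 4.50 and 4.15 FPKM in WT and 5.48, 4.23 and 5.38 in *Fmr1* KO, with KO replicate 2 inside the WT range. Htr3a, the subunit that can form the 5-HT3 channel without a partner, had 2.97 to 3.67 FPKM in WT and 3.07 to 3.74 in *Fmr1* KO, while Htr3b, which encodes its partner subunit and lies 23.9 kb away on chromosome 9, was listed at 0. Htr7, Htr4, Htr6 (all Gs-coupled), Htr2a and Htr5a followed between 1.80 and 2.97 FPKM. Htr1b, Htr1d, Htr1f, Htr2b and Htr5b remained under the minimum, with library values from 0 to 0.651 FPKM.

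The adrenergic family had 6 of 9 genes past the minimum, and its leading genes were close in level. Adra2a, encoding a Gi/o-coupled receptor found both on noradrenergic terminals and on their target cells, averaged 9.28 FPKM, next to Adra1d (Gq-coupled) at 8.80 and Adra2c (Gi/o-coupled) at 8.47. Adra2c itself had 8.83, 8.15 and 8.82 FPKM in WT and 8.96, 7.23 and 8.84 in *Fmr1* KO, with KO replicate 2 the lowest. Adrb1, the beta receptor coupled to Gs, had 3.95, 4.24 and 4.90 FPKM in WT and 5.03, 5.06 and 4.67 in *Fmr1* KO, where WT replicate 3 exceeded KO replicate 3. Adra1a and Adra1b lay at 2.94 to 3.61 and 1.47 to 2.12 FPKM. Adrb3, the beta receptor of fat tissue, and Adra2b stayed between 0.0132 and 0.248 FPKM.

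Of the 4 histamine receptor genes, Hrh3 and Hrh1 passed the minimum. Hrh3, encoding the Gi/o-coupled receptor that holds back transmitter release from axon terminals, had 7.27, 6.80 and 6.39 FPKM in WT and 7.61, 7.60 and 6.57 in *Fmr1* KO. Hrh1, the Gq-coupled receptor that sedating antihistamines block, had 2.30, 2.36 and 2.54 FPKM in WT and 2.57, 2.60 and 2.39 in *Fmr1* KO. For both genes KO replicate 3 lay within the WT range. Hrh2 had 0.614 to 0.860 FPKM, and Hrh4, a receptor of immune cells, was listed at 0.

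All 5 muscarinic receptor genes were above 0, and 3 passed the minimum. Chrm1, encoding the Gq-coupled M1 receptor of pyramidal cells, had 19.4, 21.6 and 21.6 FPKM in WT and 19.4, 19.6 and 20.1 in *Fmr1* KO. WT replicate 1 kept the genotypes from separating. Chrm3, also Gq-coupled, had 8.80, 9.39 and 9.08 FPKM in WT and 9.66, 8.92 and 9.27 in *Fmr1* KO, and the Gi/o-coupled Chrm4 had 7.02, 7.05 and 6.67 FPKM in WT and ranged from 6.37 to 7.66 in *Fmr1* KO. Chrm2, the autoreceptor of cholinergic terminals, was the gene nearest to the minimum from below, with 0.701, 0.820 and 0.779 FPKM in WT and 0.719, 0.732 and 1.002 in *Fmr1* KO. Chrm4 overlaps Mdk in the annotation and Chrm5 overlaps Aven, and since the sources used here do not say whether the libraries kept the strand, reads could have been shared.

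The nicotinic family was the most divided, with 4 of its 16 genes past the minimum and 3 listed at 0. Chrna4 and Chrnb2, the subunits of the main high-affinity nicotinic receptor of the brain, averaged 8.95 and 8.81 FPKM. Chrna4 had 9.03, 9.62 and 9.32 FPKM in WT and 7.72, 9.05 and 8.96 in *Fmr1* KO. Chrna7, whose product forms the calcium-permeable alpha7 channel by itself, had 6.72, 9.46 and 7.41 FPKM in WT and 7.39, 8.43 and 7.68 in *Fmr1* KO, and the WT libraries spread around all KO libraries. Chrna5, an accessory subunit of the alpha4 beta2 receptor, was the gene nearest to the minimum from above, with 1.04, 1.11 and 1.09 FPKM in WT and 1.02, 1.21 and 1.05 in *Fmr1* KO. It lies on chromosome 9 in a cluster with Chrna3 and Chrnb4, subunits typical of autonomic ganglia and the habenula, and these averaged only 0.118 and 0.0261 FPKM. Chrna5 and Chrna3 overlap at their ends, so that reads there could belong to either. Of the muscle subunit genes, Chrnb1 had 0.429 to 0.898 FPKM, Chrna1 had 0.0598 to 0.151, Chrnd had at most 0.0181, and Chrng and Chrne were listed at 0. Chrna1os had 0.261 to 0.466 FPKM.

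**Figure D2:**
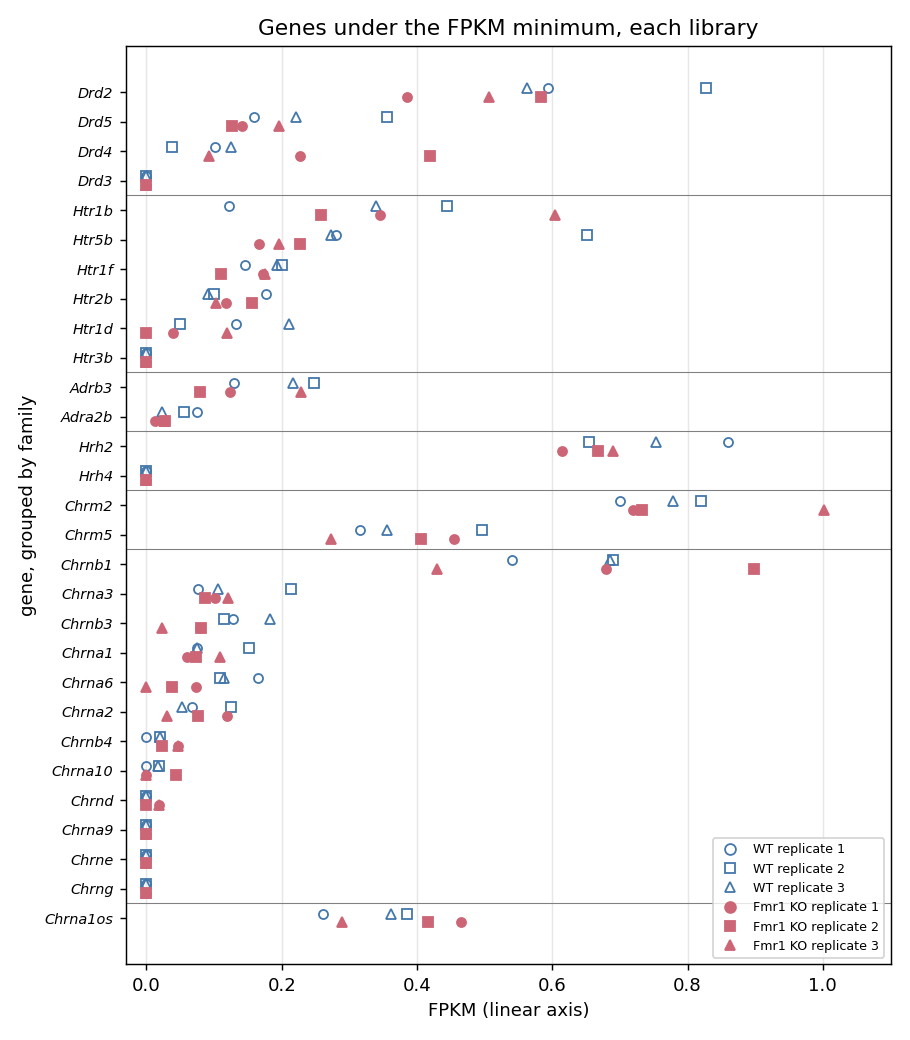
FPKM on a linear axis for the symbols under the minimum whose values are reported here, grouped by family, with open blue symbols for the WT libraries and filled red symbols for the Fmr1 KO libraries. Chrm2, Hrh2, Chrnb1 and Drd2 lie highest, 6 genes are at 0 in all libraries, and the spread within a genotype is often as wide as the values themselves.

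Other loci gave the setting of these levels. Neuronal markers were abundant (Slc17a7 at 269 to 290 FPKM, Map2 at 297 to 368), and so were those of astrocytes (Gfap at 542 to 675), so that the cultures were mixed. Between the genotypes, the summed FPKM of 10 microglial markers was 6.53 to 9.03 in WT and 1.37 to 3.11 in *Fmr1* KO, with Aif1 and Tmem119 listed at 0. For 10 choroid plexus markers the sums were 1.51 to 2.48 and 55.2 to 64.7, of which Ttr made up nearly all in KO. For 4 Y-linked genes they were 18.7 to 19.7 and 35.4 to 38.2, for 9 fibroblast and mural markers 47.6 to 52.3 and 38.8 to 47.0, mostly Dcn, whereas Col1a2 was higher in all KO libraries (0.263 to 0.374 in WT and 0.411 to 0.591 in KO), and for 6 endothelial markers 1.95 to 2.35 and 1.23 to 1.67. The sums for excitatory, inhibitory and pan-neuronal markers, astrocytes and the oligodendrocyte lineage overlapped between the genotypes, although single markers did not. Of the 9 excitatory markers, 6 had libraries that did not overlap (66.7%), among them Grm2 (log2 change -0.41, adjusted p = 0.0368 from limma) and Prox1 (-0.29, adjusted p = 0.130) in the lower direction, and in the oligodendrocyte lineage Olig2 and Pdgfra were higher in all KO libraries (log2 changes 0.25 and 0.29). The part of these markers in the receptor values was not tested. The absolute sequencing depth is unknown. In bulk RNA, fewer cells of a type and less RNA per cell cannot be told apart.

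To ask whether the receptor genes differed between the genotypes, the 13195 loci past the minimum were compared as log2(FPKM + 0.1) with limma, a linear model with a spread shared across loci, and p-values were adjusted by the Benjamini-Hochberg method over all of them. Log2 changes are *Fmr1* KO minus WT and understate the change of low genes. The p-values measure the spread between these libraries, for which separate litters or cultures were not stated one by one. *Fmr1* itself had 19.0, 19.5 and 19.7 FPKM in WT and 23.1, 21.8 and 18.5 in *Fmr1* KO (log2 change 0.12, standard error 0.080, adjusted p = 0.536 from limma, exact permutation p = 0.4). The transcript was therefore not lower in the KO libraries. An FPKM over the whole gene cannot tell a disrupted transcript from an intact one. It is therefore no check of the labels, and every direction here rests on those labels.

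No receptor gene passed an adjusted p below 0.05 in limma, where 0.265% of all tested loci did (35 of 13195). The lowest adjusted p among the 24 was 0.154. At an unadjusted p below 0.05, 2 receptor genes were higher in *Fmr1* KO (Htr6 and Adra2a) and 3 were lower (Adra1b, Adra1d and Chrnb2), together 20.8% of the 24. Of all tested loci, 14.8% had an unadjusted p below 0.05, 6.99% higher and 7.77% lower. Among the tested genes, the same 5 were those whose 3 KO libraries all lay on the same side of the 3 WT libraries, which is 20.8% against 21.1% of all tested loci. The receptor genes thus separated about as often as tested loci in general. Of the 24, 14 had a log2 change above 0 and 10 below, with a median of 0.015, beside 51.7% above 0 and a median of 0.005 over all tested loci.

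Among the tested genes, Htr6 showed the largest difference. It encodes a Gs-coupled serotonin receptor found on neuronal primary cilia and spans 139059706 to 139075570 on chromosome 4. It had 2.13, 2.14 and 2.28 FPKM in WT and 3.01, 2.85 and 2.78 in *Fmr1* KO. The lowest KO library exceeded the highest WT library, and the spread within each genotype was small (means of 2.18 ± 0.0840 and 2.88 ± 0.116 FPKM in WT and KO, SD, n = 3). The log2 change was 0.38 (95% interval 0.16 to 0.61, or 30.6% higher), with an unadjusted p of 0.00441 and an adjusted p of 0.154 from limma.

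Adra2a (chromosome 19, 54045259 to 54048982) was the other gene that was higher. It had 8.53, 8.16 and 9.17 FPKM in WT and 9.79, 9.66 and 10.4 in *Fmr1* KO, a separation of the genotypes narrower than the range within either. The log2 change was 0.20 (standard error 0.067, or 15.2% higher), with an unadjusted p of 0.0147 and an adjusted p of 0.226 from limma.

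Both of the lower adrenergic genes encode Gq-coupled alpha1 receptors. Adra1d (chromosome 2, 131545357 to 131562497) had 9.61, 8.82 and 9.58 FPKM in WT and 7.95, 8.19 and 8.68 in *Fmr1* KO (log2 change -0.17, standard error 0.067, adjusted p = 0.286 from limma). WT replicate 2 and KO replicate 3 came close to each other. Adra1d overlaps the predicted genes Gm14285 and Gm39938. Adra1b (chromosome 11, 43774605 to 43901250) had 2.12, 2.03 and 1.97 FPKM in WT and 1.86, 1.47 and 1.47 in *Fmr1* KO (log2 change -0.34, standard error 0.14, adjusted p = 0.314 from limma). Its KO replicate 1 lay nearer to the WT libraries than to the other KO libraries. Adra1a, the remaining alpha1 gene, had 3.11, 3.35 and 3.61 FPKM in WT and 2.95, 3.12 and 2.94 in *Fmr1* KO, with an overlap of WT replicate 1 and KO replicate 2 and a log2 change of -0.15 (limma, adjusted p = 0.503).

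Chrnb2, the beta2 nicotinic subunit gene whose promoter window is printed above (chromosome 3, 89753448 to 89764632), had 9.03, 9.93 and 9.19 FPKM in WT and 8.43, 8.24 and 8.02 in *Fmr1* KO. All KO libraries lay below all WT libraries, and the log2 change was -0.19 (standard error 0.064, 12.1% lower), with an unadjusted p of 0.0178 and an adjusted p of 0.242 from limma. Chrnb2 overlaps Adar, which encodes an RNA-editing enzyme, in the annotation. Its partner Chrna4 had a log2 change of -0.12 (limma, adjusted p = 0.497), with KO replicate 2 inside the WT range and the other KO libraries below it. For each of the 5 genes the exact permutation p was 0.1, the smallest that 3 libraries against 3 allow.

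**Figure D3:**
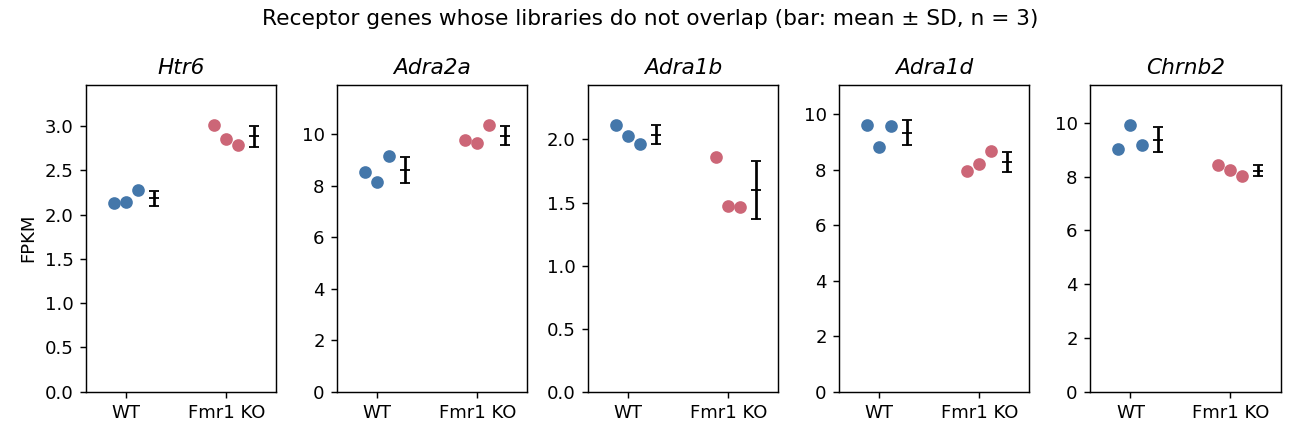
FPKM in each library (points) with the mean ± SD of 3 libraries (black bars), for the 5 tested receptor genes whose libraries did not overlap between the genotypes, each panel on its own axis from 0. Htr6 and Adra2a are higher in Fmr1 KO, and Adra1b, Adra1d and Chrnb2 are lower, and relative to its level Htr6 differs most (30.6% higher).

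The other 19 tested genes had log2 changes from -0.17 (Htr2c) to 0.18 (Adrb1), with adjusted p from 0.443 to 0.985 in limma. For Htr2c the 95% interval ran from -0.40 to 0.072. Htr2c is also abundant in choroid plexus epithelium, whose markers are given above by genotype. For Drd1 the log2 change was 0.041, with an interval from -0.29 to 0.37. That of Chrm1, the most precise of the list, ran from -0.21 to 0.054. Htr2a had the interval from -0.29 to 0.62, because WT replicate 1 had 1.39 FPKM where the other 5 libraries had 2.13 to 2.44. Over the 24 genes, the bounds lay 0.233 to either side of the estimate at the median. The intervals of 21 genes stayed within 0.5 of 0 on the log2 scale, and those of all 24 within 1. A p above the threshold does not show that a gene was the same in both genotypes.

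**Figure D4:**
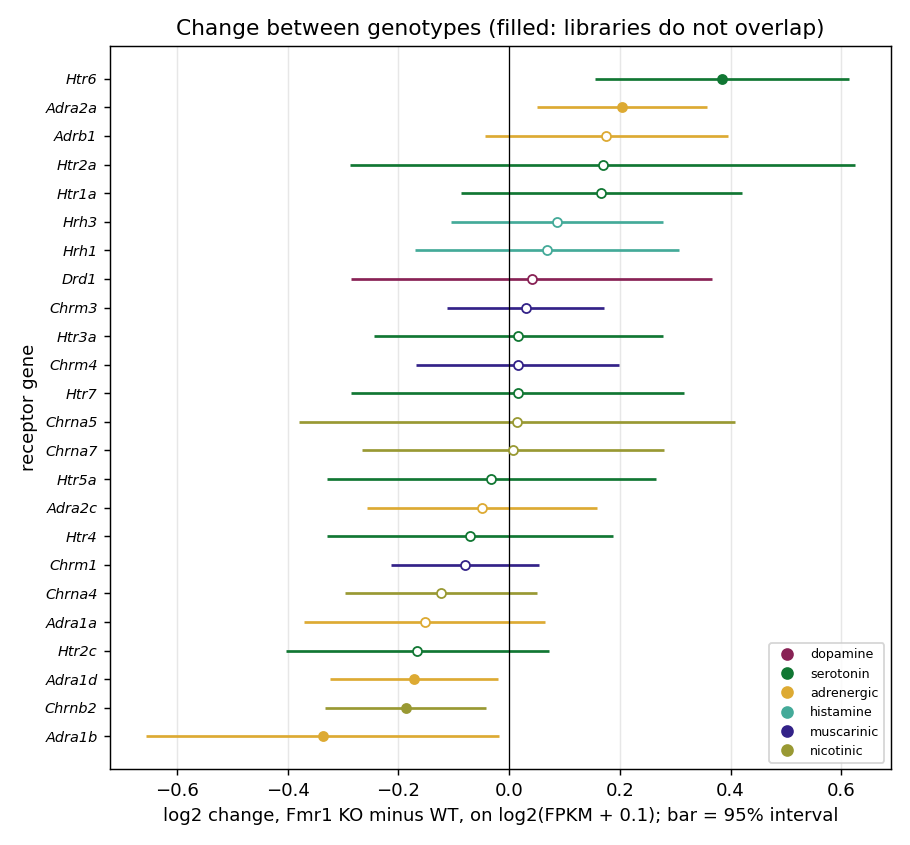
Log2 change (Fmr1 KO minus WT, on log2(FPKM + 0.1)) of the 24 tested receptor genes with 95% intervals from limma, coloured by family and filled where all KO libraries lay on the same side of all WT libraries. The intervals of Htr6 and Adra2a lie above 0, those of Adra1b, Adra1d and Chrnb2 below 0, and the other 19 cross it.

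The receptor genes were also grouped by the signal they pass on. The 5 tested Gs-coupled receptor genes had a median log2 change of 0.041, the 6 Gi/o-coupled of 0.052, the 8 Gq-coupled of -0.12 and the 5 channel subunits of 0.0072. Of the 8 Gq-coupled genes, 5 were below 0, and they include all 3 alpha1 genes. The summed FPKM of the 10 Gq-coupled genes in WT was 59.5, 61.9 and 62.3 and in *Fmr1* KO 59.4, 56.7 and 56.6, so that WT replicate 1 and KO replicate 1 nearly met. By family, the sums overlapped between the genotypes for all 6. Of 16 receptor genes that antipsychotics of the trifluoperazine class bind (the dopamine, alpha1 and muscarinic genes with Htr2a, Htr2c and Hrh1), 10 were tested, with 5 above 0, 5 below 0 and a median of -0.032. At an unadjusted p below 0.05, 2 of the 10 were lower, Adra1b and Adra1d, and none was higher, beside 14.8% of all tested loci in either direction and 7.77% lower. None passed an adjusted p below 0.05 in limma.

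The genes under the minimum were fitted in limma without a minimum, together with every locus above 0 in a library. There, 9.8% of 26981 loci had an unadjusted p below 0.05, and 2 of the 24 low symbols did (8.33%), with 0 at an adjusted p below 0.05. Both encode subunits of nicotinic receptors best known from midbrain dopamine neurons, and they lie next to each other on chromosome 8, 3.48 kb apart. Chrna6 had 0.165, 0.108 and 0.115 FPKM in WT and 0.0735, 0.0376 and 0 in *Fmr1* KO (log2 change -0.77, adjusted p = 0.410 from limma). Chrnb3 had 0.127, 0.114 and 0.183 FPKM in WT and 0.0793, 0.0812 and 0.0229 in *Fmr1* KO (log2 change -0.60, adjusted p = 0.496 from limma). The KO libraries lay below the WT libraries for both, at levels about as large as the 0.1 added before taking logs. Drd2 had a log2 change of -0.36 (unadjusted p = 0.180 from limma), with KO replicate 2 inside the WT range, and Drd4 one of 0.79 (unadjusted p = 0.0940 from limma), with KO replicate 3 inside it. Htr5b and Chrnb4 also had libraries that did not overlap, at an unadjusted p above 0.05. Htr5b had 0.280, 0.651 and 0.273 FPKM in WT and 0.166, 0.227 and 0.196 in *Fmr1* KO (log2 change -0.68, unadjusted p = 0.0803 from limma), with WT replicate 2 far above the other libraries. Chrnb4 had 0, 0.0194 and 0.0207 FPKM in WT and 0.0462, 0.0236 and 0.0467 in *Fmr1* KO (log2 change 0.29, unadjusted p = 0.108 from limma), all near 0. The genes listed at 0 in all libraries were Drd3, Htr3b, Hrh4, Chrna9, Chrne and Chrng. A listed 0 need not mean that the transcript is absent, since Arrb2, a gene that most cells use, was also listed at 0 in all libraries.

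The genes that make, carry and break down the transmitters were mostly low. All 8 genes for synthesis stayed under the minimum, with sums of 0.608 to 1.67 FPKM per library, and Chat, which makes acetylcholine, was listed at 0. Th and Ddc, which make dopamine, had 0.0666 to 0.548 and 0.299 to 0.797 FPKM. Of 10 transporter genes, 2 passed the minimum. Slc29a4, a low-affinity monoamine carrier of the plasma membrane, had 30.5 to 35.4 FPKM (log2 change 0.10, adjusted p = 0.436 from limma). Slc18a2, which loads monoamines into vesicles, had 2.87, 2.36 and 2.62 FPKM in WT and 2.37, 2.01 and 1.72 in *Fmr1* KO, with an overlap at WT replicate 2 and KO replicate 1, and a log2 change of -0.36 (unadjusted p = 0.0358, adjusted p = 0.300 from limma).

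Of 6 genes for breakdown, 4 were tested. Maob, the monoamine oxidase found mainly in astrocytes and serotonin neurons, had 4.65, 5.06 and 6.60 FPKM in WT and 3.59, 3.15 and 3.97 in *Fmr1* KO. All KO libraries were below all WT libraries (log2 change -0.58, unadjusted p = 0.00264, adjusted p = 0.130 from limma). Maoa, the other monoamine oxidase, had between 10 and 10.6 FPKM in all libraries and a log2 change of 0.023. Ache, which breaks down acetylcholine, had 55.5, 56.9 and 57.0 FPKM in WT and 64.3, 58.6 and 60.6 in *Fmr1* KO (log2 change 0.11, unadjusted p = 0.0456, adjusted p = 0.327 from limma).

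Downstream of the receptors, 9 of 10 G protein alpha subunit genes were tested. None had an unadjusted p below 0.05 in limma, beside 14.8% of all tested loci. A list of 9 genes is too short to tell none from that share. Their median log2 change was 0.030, and Gnas, the Gs subunit, was the highest at 634 to 705 FPKM. Only Gnaq separated the genotypes (11.1% of the list, beside 21.1% of all tested loci). It was higher in every KO library than in any WT library (log2 change 0.074, adjusted p = 0.466 from limma). Of 6 tested genes of receptor kinases and arrestins, 1 had an unadjusted p below 0.05 in limma (16.7%, beside 14.8% of all tested loci). Arrb1, the arrestin that uncouples phosphorylated receptors, was higher (48.4, 53.9 and 51.4 FPKM in WT and 54.3, 60.4 and 60.9 in *Fmr1* KO, log2 change 0.19, adjusted p = 0.223 from limma). Its KO replicate 1 exceeded WT replicate 2 only slightly. Grk2 was also higher in every KO library than in any WT library (log2 change 0.064, adjusted p = 0.529 from limma). Together they made 33.3% of the list, beside 21.1% of all tested loci. The largest change was that of Grk4, at -0.35 (adjusted p = 0.508 from limma), with overlapping libraries. Of 14 RGS genes, whose products speed up the shut-off of G proteins, 3 had an unadjusted p below 0.05 in limma, Rgs11 higher and Rgs2 and Rgs4 lower. That is 21.4%, beside 14.8% of all tested loci. Only for Rgs11 did the libraries of the genotypes not overlap (7.14% of the list, beside 21.1% of all tested loci), while those of Rgs2 and Rgs4 overlapped. Rgs11 had a log2 change of 0.27 (limma, adjusted p = 0.170). Rgs4, the highest of the list at 49.0 to 65.6 FPKM, had one of -0.23 and Rgs2, which acts mainly on Gq, one of -0.20 (adjusted p = 0.251 and 0.280 from limma).

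The genes of chaperones and Ly6 proteins, which help nicotinic and 5-HT3 receptors to assemble or tune their gating, had the most members with an unadjusted p below 0.05 among the accessory lists. Of 8 tested genes, 7 had a log2 change below 0, with a median of -0.13 beside 0.005 for all tested loci. At an unadjusted p below 0.05, 4 were lower and 0 higher, beside 7.77% and 6.99% of all tested loci, and none passed an adjusted p below 0.05 in limma. Lynx1, a membrane-bound relative of snake toxins that restrains nicotinic receptors, had 30.3, 33.8 and 33.0 FPKM in WT and 24.1, 25.3 and 27.9 in *Fmr1* KO. Every KO library was below every WT library (log2 change -0.33, unadjusted p = 0.00114, adjusted p = 0.0925 from limma). Tmem35a, which encodes the chaperone NACHO needed for alpha7 assembly, had 44.6, 41.1 and 36.4 FPKM in WT and 35.4, 33.4 and 32.5 in *Fmr1* KO (log2 change -0.26, adjusted p = 0.185 from limma). Lypd1 and the chaperone gene Ric3 had log2 changes of -0.23 and -0.15 (adjusted p = 0.201 and 0.238 from limma). Ly6h, the highest of the list at 212 to 254 FPKM, had one of -0.0095, and Lypd6b, at 0.21, was the exception in direction. In 5 of the 8, all KO libraries lay on the same side of all WT libraries, beside 21.1% of all tested loci. The list was not tested as a set.

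**Figure D5:**
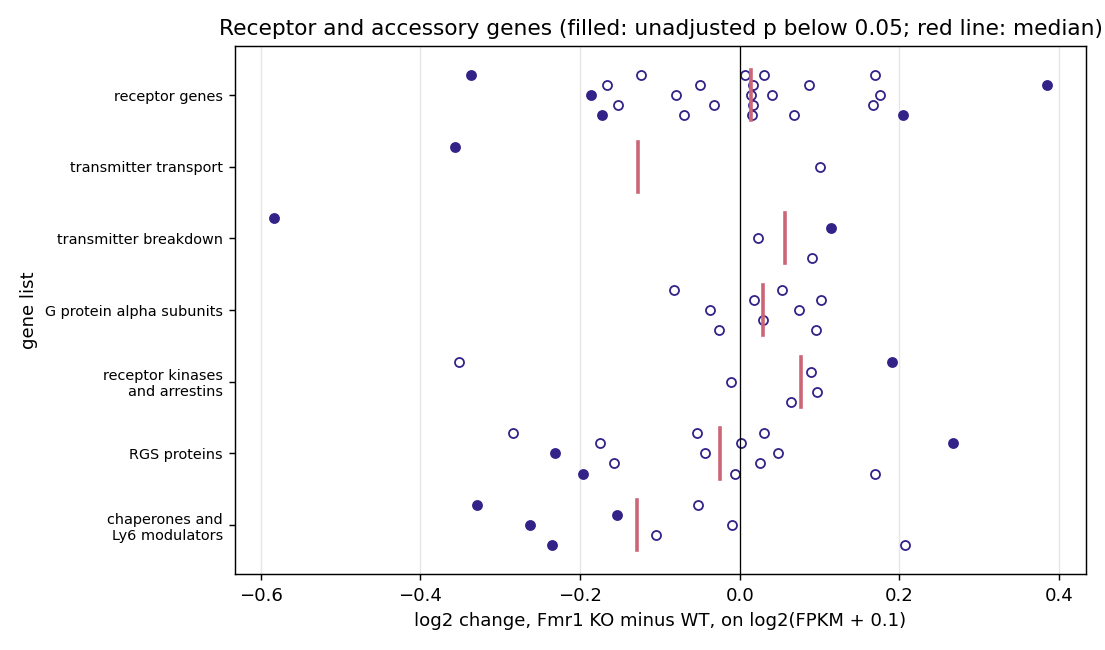
Log2 change (Fmr1 KO minus WT) of the tested receptor genes and of each accessory list with a tested gene, with points shifted vertically for legibility, filled where the unadjusted p from limma was below 0.05, and a red line at the median of the list. The receptor genes centre on 0.015, and the chaperone and Ly6 list on -0.13 with 7 of 8 points below 0.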

How the data were processed

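Total RNA of 3 WT and 3 *Fmr1* KO hippocampal cultures was sequenced. Per the methods and labels, the authors cleaned the reads with Fastx Clipper and sickle and discarded junk sequence. TopHat2 placed the reads on GRCm38, Cufflinks assembled the genes and Cuffdiff tested the genotypes. The deposited values used here are FPKM for each library. Its pooled FPKM, fold changes, p-values and q-values from the authors' comparison were not used. Tool versions, annotation, library type and library scaling were not given in the sources used here. FPKM gives no read number, so depth is unknown. At low loci, the modal ratio of FPKM in WT replicate 1 to that in each other library was 1.09 to 1.33.

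The table has 48100 rows for 47086 loci, and 20105 loci are at 0 in all libraries. The 54 symbols filled 55 rows, as Chrne had 2 loci, both at 0. Groups came from the sample titles. The fit used limma 3.58.1 in R 4.3.3 on log2(FPKM + 0.1), with genotype as the only term and a trend of the variance with the mean. It took the 13195 loci whose mean reached 1 in either genotype, with two-sided p-values adjusted by the Benjamini-Hochberg method. Exact permutation tests were also two-sided. In data simulated for this comparison over 13195 loci, 52.5% of 200 loci changed by 0.5 (log2) were recovered with 8 false calls. Of 200 changed by 1, 89.5% were recovered with 7 false calls. Both planted changes are larger than those of the tested receptor genes (-0.34 to 0.38), so the rates do not hold for changes of that size. The simulated noise was drawn separately for each locus, with no effect shared by a library. Promoters came from RefSeq (GRCm38.p6).

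Named with values were tested receptor genes at an unadjusted p below 0.05 or without overlap, the 3 highest of each family past the minimum, Drd1, Drd2, the genes next to the minimum, *Fmr1*, and accessory genes at an unadjusted p below 0.05 or highest of a list. Others named here, such as Adra1a, Adrb1, Chrna6, Chrnb3, Htr5b, Chrnb4, Maoa and Lypd6b, were chosen after their values were seen. The members and the hand-written lists were chosen with earlier results of these data known. Alternatives were other pseudocounts and minimums, centred libraries, no trend, each library left out and the replicate number as a block. The values of a few single genes are left out of the text and plots.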

Additional observations from a re-analysis of the deposited data

How the results depend on the processing

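Under all 14 alternatives, 0 receptor genes passed an adjusted p below 0.05 in limma. Htr6, Adra2a, Adra1b, Adra1d and Chrnb2 kept their direction in every alternative that tested them. Htr6 stayed at an unadjusted p below 0.05 in 13 of 13 (adjusted p 0.0897 to 0.398), Adra2a and Chrnb2 in 12 of 14, Adra1d in 10 of 14 and Adra1b in 8 of 13. Without an FPKM minimum, 5 receptor genes were lower at an unadjusted p below 0.05, Chrna6 and Chrnb3 being the added ones, and the median was -0.034, as with a minimum of 0.1. With a minimum of 5, which removes Htr6, 1 was higher. Over all loci, the 12 higher and 23 lower at an adjusted p below 0.05 in limma became 6 and 9 without a minimum, 7 and 14 without the trend, and 20 and 34 with a minimum of 5. With each library left out, they were 5 to 7 higher and 8 to 13 lower, at unadjusted p the receptor genes were 1 to 3 higher and 1 to 3 lower, and their median was -0.028 to 0.031. Only 1 was higher without WT replicate 2 or KO replicate 3 (Htr6), and only 1 was lower without WT replicate 2 or 3 or KO replicate 2 or 3.

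Whether the replicate numbers pair the libraries was not settled. Deviations of same-numbered libraries correlated at 0.243, 0.058 and 0.080. The value for replicate 1 was the highest of all pairs, and replicate 1 against other numbers gave -0.152 to -0.119. WT and KO replicate 2 did not correlate best with each other. With the replicate block, at an unadjusted p below 0.05 there were 2 higher and 4 lower receptor genes, Htr2c being the added one (unadjusted p = 0.0492 from limma). Over all loci, 29 were higher and 36 lower at an adjusted p below 0.05, against 12 and 23 without the block. For 10 tested receptor genes other than the 5 named first, the direction turned when a library was left out, among them Htr2a (log2 change 0.17), which was -0.077 without WT replicate 1. The ranges were -0.10 to 0.049 for Adra2c, -0.049 to 0.082 for Chrm4, -0.053 to 0.057 for Chrna5, -0.097 to 0.15 for Chrna7, -0.024 to 0.15 for Drd1, -0.077 to 0.31 for Htr2a, -0.068 to 0.086 for Htr3a, -0.13 to 0.0034 for Htr4, -0.10 to 0.018 for Htr5a and -0.086 to 0.13 for Htr7. The cause of these shifts was not tested. Summing loci of a symbol gave no new value, as only Chrne had several, all at 0.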
